A study of Arabidopsis thaliana with 3 samples.

Results

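The 8 genes described here are dehydrins and other genes of the cold and abscisic acid (ABA) response, measured in cells sorted from roots of Arabidopsis thaliana and labelled mature endodermis. They were chosen by name as 8 of the 22746 plant probe sets of the array, and the highest mean signal of the arrays, that of ERD10, entered the choice, so their levels are given as a description with no test. They are ERD10 (AT1G20450, probe set 259516_at), COR47 (AT1G20440, 259570_at), LTI30 (AT3G50970, 252102_at), RAB18 (AT5G66400, 247095_at), COR15A (AT2G42540, 263497_at), COR15B (AT2G42530, 263495_at), RD29A (AT5G52310, 248337_at) and RD29B (AT5G52300, 248352_at). The platform annotation pairs 4 of them with these genes (COR47, LTI30, COR15A and COR15B). The other 4 carry the names of the member list alone.

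The series holds 1 group of 3 arrays, each labelled a biological replicate. All are wild type of the Columbia accession, from seedlings aged 6 days. Their seeds had been stratified for 2 days at 4 °C, and the plants were grown upright at 22 °C with 16 hours of light and 8 hours of dark on Murashige and Skoog medium with 1% sucrose. Root tips about 1 cm long were placed in a protoplast solution, and protoplasts with green fluorescent protein, from the marker line E30, were collected by fluorescence-activated sorting. The labels name no cold, drought or ABA treatment, and the group has no control. None of the values below can therefore be read as a response to a stress, or as the lack of one. All 3 arrays went through the protoplast solution and sorting, so effects of that handling cannot be told apart from levels in the cell type. In sorted RNA, fewer cells of a type and less RNA per cell cannot be told apart.

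Dehydrins are hydrophilic, largely disordered proteins of the late embryogenesis abundant (LEA) class, which bind membranes and proteins and protect them when water is lost. Many of their genes are induced by cold, drought or ABA. In this pathway, ABA acts through bZIP factors that bind ABA-responsive elements, and cold acts through the CBF (DREB1) factors, which bind the dehydration-responsive element. RD29A carries both kinds of element and RD29B is driven mainly by the ABA-responsive kind, which is why the pair is widely used to tell the branches apart.

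Signals are linear intensities, 1 per probe set and array, as the authors deposited them. To place them, each was set against a reference level taken from 27 probe sets for genes of Bacillus subtilis, which are foreign to the plant. On each array it was the 90th percentile of their signals, namely 14.2 on the first, 13.1 on the second and 12.3 on the third. The median plant signal was 55.1, 53.3 and 64.7. Probe sets differ in how strongly they respond to their transcript, so a rank on the array is a position among signals and does not order the amounts of RNA.

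**Figure D1:**
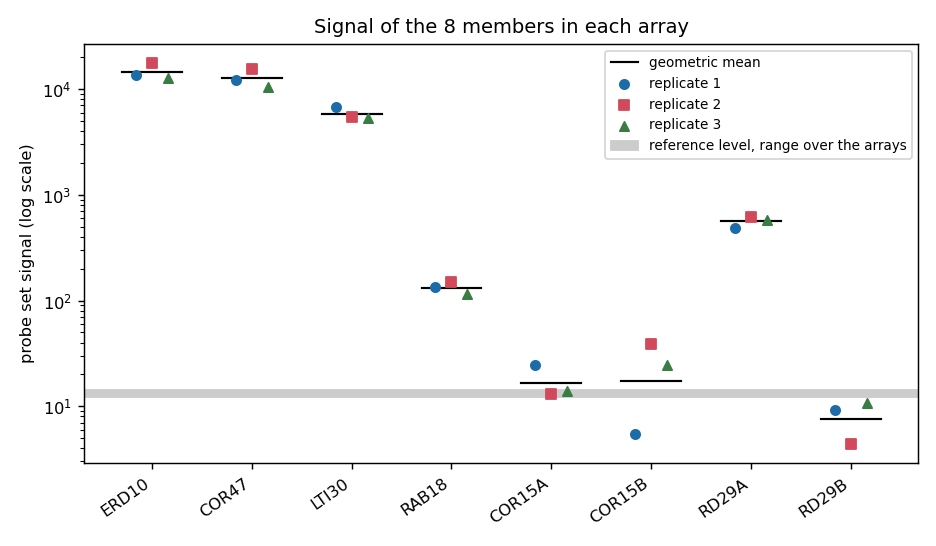
Signal of the 8 members on a log axis, with 1 point for each array, a bar at the geometric mean of the 3 arrays and a grey band for the range of the reference level. ERD10, COR47 and LTI30 lie highest, at 5303 or more on all 3 arrays, RD29A and RAB18 lie between, and COR15A, COR15B and RD29B lie around the band.

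The highest signals among the members were those of dehydrins. ERD10, an acidic dehydrin first isolated as an early gene of the response to dehydration, had signals of 13541, 17639 and 12869 in replicates 1, 2 and 3. Its mean was 14683 ± 2582 (SD, n = 3), the highest of all plant probe sets, but it held the first rank in replicate 2 alone, with rank 2 in replicate 1 and rank 4 in replicate 3. The next highest mean, that of 263284_at, was 13993 ± 302 (SD, n = 3), a difference smaller than the SD of ERD10.

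COR47, an acidic dehydrin closely related to ERD10, had signals of 12257, 15589 and 10529. Its mean of 12792 ± 2572 (SD, n = 3) was rank 4 of the plant probe sets, and its ranks by array were 7, 2 and 8. ERD10 and COR47 are direct neighbours on their chromosome, with 0 annotated genes between them. Of the 10 highest means, 2 therefore belonged to this pair. The others included 259291_at (13127 ± 716, SD, n = 3), AT4G13580 (12703 ± 570, SD, n = 3) and AT1G71740 (11244 ± 920, SD, n = 3), and 6 of the 10 have no gene name here.

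LTI30, a lysine-rich dehydrin that binds membranes and is named for its induction at low temperature, had signals of 6820, 5492 and 5303. Its mean was 5872 ± 827 (SD, n = 3). It held ranks 91, 128 and 107, so all 3 arrays placed it near the top of the distribution.

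RAB18, a dehydrin named for its response to ABA, lay far lower than these 3. Its signals were 134, 148 and 114, with a mean of 132 ± 17.0 (SD, n = 3). It was above the reference level in each array, by 9.39-fold, 11.3-fold and 9.28-fold. Its mean log2 signal was higher than that of 68.9% of the plant probe sets, so this dehydrin lay in the upper middle of the array where ERD10, COR47 and LTI30 lay above 99.5% of it.

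RD29A encodes a hydrophilic protein induced by cold, drought and ABA. It had signals of 489, 619 and 579 and a mean of 563 ± 66.4 (SD, n = 3). Its fold over the reference level was 34.4, 47.4 and 47.1 in replicates 1, 2 and 3. Its ranks, 2582, 2205 and 2292, put it well above the middle of the plant probe sets on each array.

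RD29B, the neighbouring gene with 0 annotated genes between, gave signals of 9.28, 4.38 and 10.8, with a mean of 8.16 ± 3.37 (SD, n = 3). It lay below the reference level in all 3 arrays, at 0.652-fold, 0.335-fold and 0.880-fold of it. A signal at this level does not show that the transcript was absent. RD29A and RD29B therefore occupied separate parts of the array, with RD29A above 89.8% of the plant probe sets and RD29B above 15.1%.

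COR15A and COR15B encode chloroplast proteins that protect membranes during freezing, and they too are direct neighbours, with 0 annotated genes between. COR15A had signals of 24.7, 13.0 and 13.9 (mean 17.2 ± 6.51, SD, n = 3), that is 1.73-fold, 0.994-fold and 1.13-fold of the reference level. COR15B had signals of 5.45, 38.5 and 24.5 (mean 22.8 ± 16.6, SD, n = 3), that is 0.383-fold, 2.95-fold and 1.99-fold of it. Each lay above the reference level in 2 of 3 arrays, with COR15A just under it in replicate 2 and COR15B well under it in replicate 1.

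**Figure D2:**
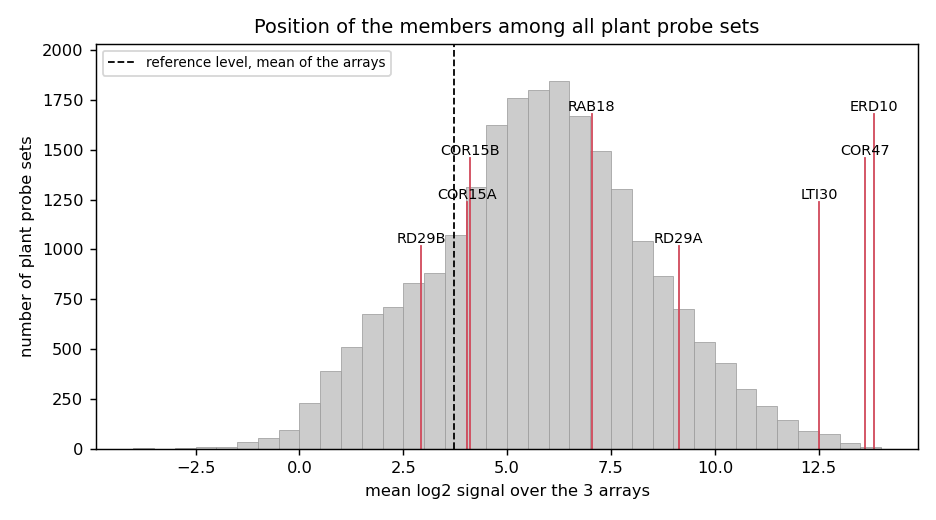
Histogram of the mean log2 signal of the 22746 plant probe sets, with the 8 members as vertical lines and the mean reference level dashed. ERD10, COR47 and LTI30 stand in the far right tail, RD29A on the right slope, RAB18 right of the peak, and COR15A, COR15B and RD29B around the reference level.

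The median log2 difference from the reference level, averaged over the arrays, was 4.36 over the 8 members and 2.10 over the plant probe sets. Levels entered the choice of members, so nothing is read from this and no test of their levels is given. The members ran from 10.11 ± 0.23 (SE) for ERD10, or 1103-fold, to -0.79 ± 0.34 (SE) for RD29B. Between these lay COR47 at 9.90 ± 0.23, LTI30 at 8.79 ± 0.21, RD29A at 5.41 ± 0.23, RAB18 at 3.32 ± 0.22, COR15B at 0.39 ± 0.62 and COR15A at 0.32 ± 0.26 (log2, SE). The SEs here and below are moderated by limma, which draws each variance toward a value pooled over all plant probe sets. They are therefore not each gene's own error, and for RAB18 and LTI30 they exceed the SD of the log2 signal.

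The 5 brighter members varied less between arrays than the 3 dim ones. The SD of the log2 signal was 0.24 for ERD10, 0.29 for COR47, 0.20 for LTI30, 0.19 for RAB18 and 0.17 for RD29A. In linear terms the highest array of these 5 exceeded the lowest by between 1.26-fold (RD29A) and 1.48-fold (COR47). COR15A had an SD of 0.51 and a range of 1.90-fold, RD29B an SD of 0.70 and a range of 2.47-fold, and COR15B an SD of 1.48 and a range of 7.07-fold.

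Set against the 500 plant probe sets nearest in mean level, 7 of the 8 members had a spread ordinary for that set. Their SD stood between the 18.6th percentile (RD29A) and the 65.0th (COR47) of those neighbours. For ERD10, COR47 and LTI30 the neighbours were the 500 other highest probe sets, most of them dimmer, so these percentiles are a loose guide. Among the 10 highest means, ERD10 and COR47 had the largest SDs of the linear signal (2582 and 2572, next 1783). COR15B stood at the 90.2nd percentile, with replicates 1, 2 and 3 at -1.66, 1.16 and 0.50 (log2) from the mean of its arrays. The median SD of the neighbours was 0.23 around ERD10, 0.31 around RAB18 and RD29A, 0.63 around COR15B and 1.21 around RD29B, so dim probe sets in general varied more on these arrays.

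**Figure D3:**
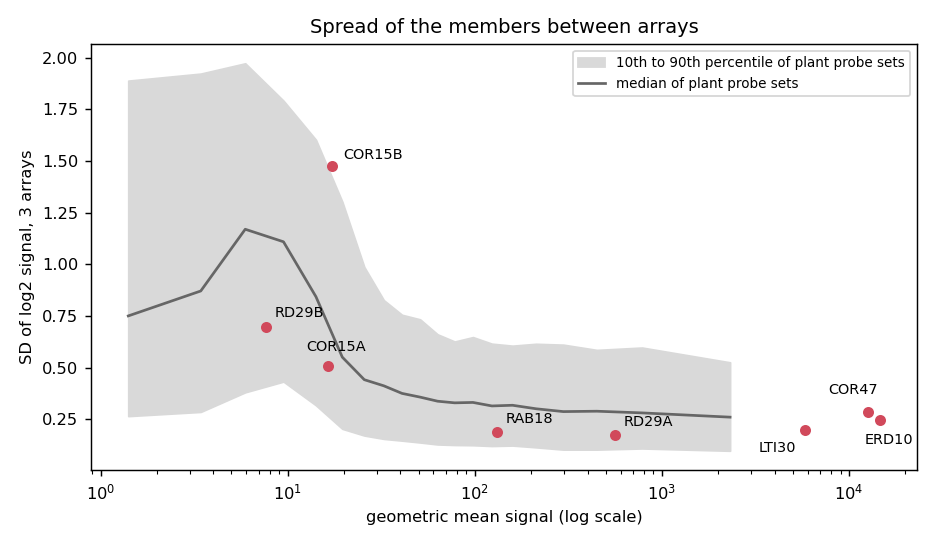
SD of log2 signal over the 3 arrays against the geometric mean signal (log axis), with the 8 members as points and the median and the 10th to 90th percentile of all plant probe sets in 20 bins of level. COR15B lies at the upper edge of the band and the other members within it or, for ERD10, COR47 and LTI30, at its height beyond the last bin centre.

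The replicates did not order the members in 1 way. ERD10, COR47 and RAB18 were highest in replicate 2 and lowest in replicate 3. LTI30 was also lowest in replicate 3 but highest in replicate 1. RD29A and COR15B were highest in replicate 2 and lowest in replicate 1. COR15A was highest in replicate 1 and RD29B in replicate 3, and both were lowest in replicate 2.

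The neighbouring genes ERD10 and COR47 deviated alike: ERD10 by -0.10, 0.28 and -0.18 (log2) and COR47 by -0.04, 0.30 and -0.26 in replicates 1, 2 and 3. Of the 100 plant probe sets with the highest means, 49 were highest in replicate 2 and 12 in replicate 3, so replicate 2 was the highest array for many bright probe sets. After quantile normalization the deviation in replicate 2 was 0.09 for ERD10 and 0.18 for COR47, over 1.5 times smaller. After scaling each array to its median it was 0.39 for ERD10 and 0.41 for COR47, larger than as deposited. The size of this deviation thus depends on the scaling. LTI30, which is bright too, deviated by 0.23, -0.09 and -0.14.

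The other neighbouring pairs did not run in parallel. COR15A deviated by 0.58, -0.34 and -0.24 and COR15B by -1.66, 1.16 and 0.50, opposite in sign in each array. RD29A deviated by -0.19, 0.14 and 0.05 and RD29B by 0.29, -0.80 and 0.51, opposite in replicates 1 and 2. COR15A, COR15B and RD29B lay near or below the reference level, where plant probe sets of like level had a median SD of 0.68, 0.63 and 1.21 against 0.31 around RD29A, and these are differences between single arrays with no test. In all, 5 of 8 members were highest in replicate 2, where 28.0% of the plant probe sets were highest. The count was also 5 after quantile normalization, where the share of plant probe sets was 33.2%. It was 5 too after scaling to the median, for which the share of plant probe sets was not computed. This count was chosen after the arrays had been seen.

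**Figure D4:**
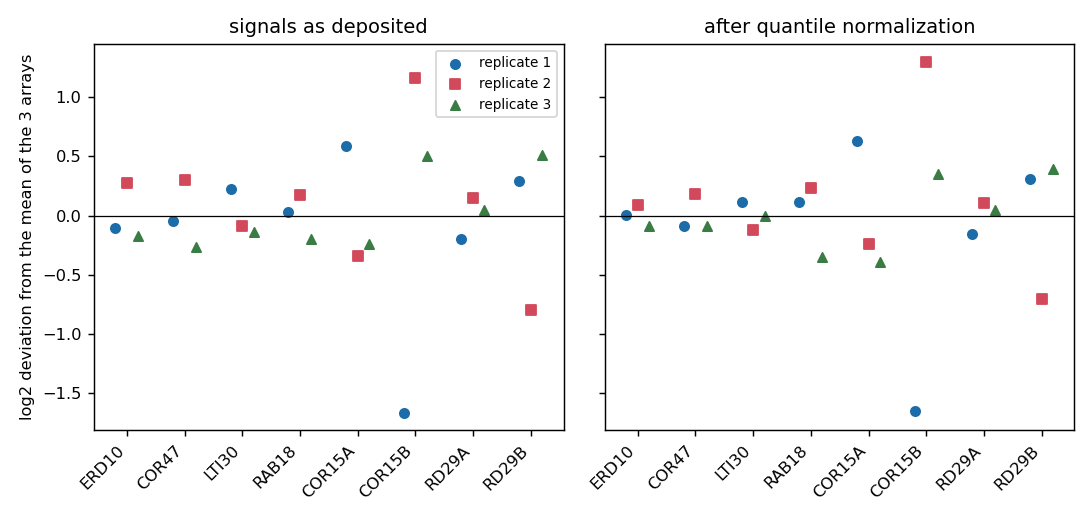
Log2 deviation of each array from the mean of the 3 arrays, for the 8 members, as deposited (left) and after quantile normalization (right). ERD10 and COR47 are highest in replicate 2 in both panels, by less on the right, while COR15A and COR15B deviate in opposite directions in both panels.

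Of the 6 dehydrins of Arabidopsis outside the member list, 4 had a probe set that the annotation pairs with them alone. HIRD11, a small histidine-rich dehydrin that binds metals, had signals of 8496, 5880 and 6739, with a mean of 7038 ± 1333 (SD, n = 3). It held ranks 41, 113 and 60 and lay 9.04 ± 0.22 (log2, SE) above the reference level (adjusted p = 3.56e-05, limma). It was thus a further dehydrin at the bright end of each array, and like LTI30 it was highest in replicate 1.

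The other 3 dehydrins were dim. AT4G39130 had signals of 17.6, 17.5 and 16.6, a range of 1.06-fold, and stood 0.39 ± 0.21 (log2, SE) above the reference level (adjusted p = 0.144, limma). Its own SD was 0.05 (log2), so this SE came mostly from the pooled variance. AT4G38410 had signals of 41.2, 12.3 and 92.3, and its difference of 1.45 ± 0.59 did not pass (adjusted p = 0.0731, limma). AT2G21490 had signals of 0.896, 1.96 and 10.1, all under the reference level, and was the 1 dehydrin called below it, at -2.34 ± 0.73 (adjusted p = 0.0326, limma). That call was lost without replicate 1 (-1.51, adjusted p = 0.128) and without replicate 2 (-2.14, adjusted p = 0.0734). ERD14 and XERO1, the neighbour of LTI30, were not analysed here.

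Few other genes of the pathway could be read. Of 105 loci in 8 lists (other dehydrins, CBF regulators, other cold genes, ABA synthesis and breakdown, receptors, phosphatases and kinases, transcription factors, and other ABA and dehydration genes), 8 had a probe set of their own in the annotation, and 5 lists had 0. Among the 8, limma's test put 4 above the reference level, 1 below and 3 in neither direction, at an adjusted p under 0.05, beside 69.1% of the plant probe sets above and 11.1% below. Their median difference was 1.81 (log2), against 2.10 over the plant probe sets.

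Both cold genes that could be read were above the reference level. COR28, a cold-induced gene tied to the circadian clock, had signals of 488, 823 and 343, or 5.29 ± 0.31 (log2, SE) above it (adjusted p = 8.31e-05, limma). COR27, its relative, had signals of 85.2, 45.5 and 54.0, or 2.17 ± 0.25 above it (adjusted p = 0.000843, limma). COR28 was highest in replicate 2 and COR27 in replicate 1, so the relatives did not share an order of arrays.

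Of the 20 other ABA and dehydration genes listed, 2 could be read, both LEA genes outside the dehydrins. LEA4-5 had signals of 475, 681 and 567, at 5.43 ± 0.24 (log2, SE) above the reference level (adjusted p = 4.53e-05, limma). LEA18, of the same LEA class, had signals of 21.3, 8.92 and 4.16 and did not pass (-0.51 ± 0.45, adjusted p = 0.340, limma). LEA4-5 was above the reference level in 3 of 3 arrays and LEA18 in 1 of 3.

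A further 8 genes carry dehydrin, cold, drought, late embryogenesis or HVA22 in their annotated symbol or synonyms. They were picked by those words after the arrays had been seen and are described with no test. SRC2, a protein with a C2 domain named after a cold-regulated soybean gene, had signals of 5968, 5628 and 3644, and AT2G44060, annotated as LEA26, had 3784, 4821 and 3783. Both lay above 99% of the plant probe sets.

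DI19, a zinc finger gene named for its induction by drought, had signals of 1630, 1148 and 1269, DI21, also named for drought, 630, 550 and 376, and AT2G46140, annotated as LEA27, 205, 146 and 199. HVA22C, a homologue of an ABA-induced barley gene, had 24.5, 27.9 and 37.3, and AtLEA4-1 had 44.9, 16.3 and 10.9. DOR, an F-box gene annotated as a repressor of drought tolerance, lay under the reference level in all 3 arrays, with 1.65, 1.99 and 6.44. These 8 genes thus ran from above 5.70% of the plant probe sets (DOR) to above 99.4% (SRC2).

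**Figure D5:**
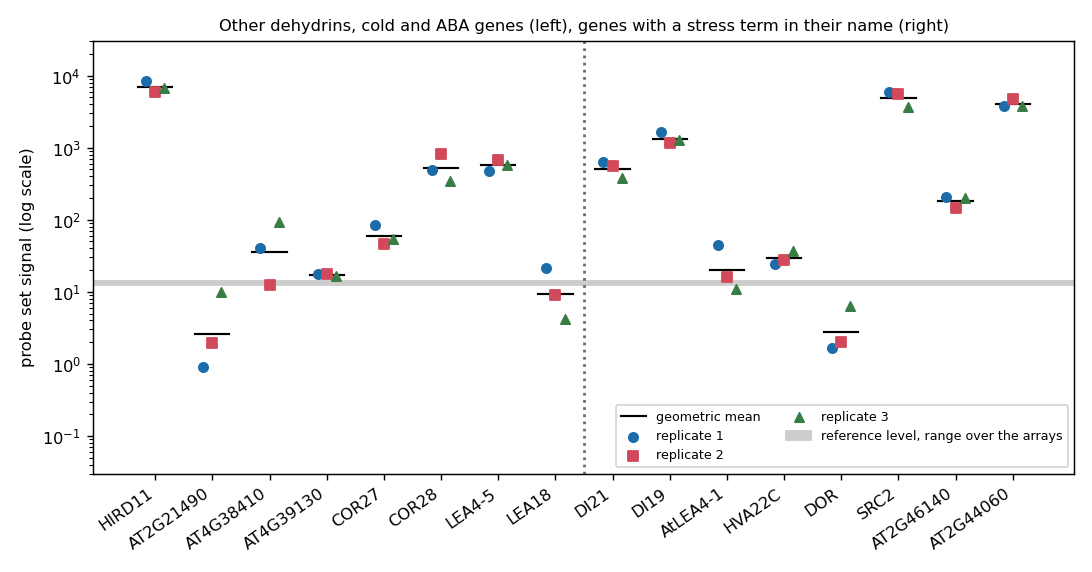
Signal on a log axis of the 8 list genes outside the member list (left of the dotted line) and of the 8 genes with a stress term in their annotated name (right), with 1 point for each array, a bar at the geometric mean and a grey band for the range of the reference level. HIRD11, SRC2 and AT2G44060 lie highest, at 3644 or more on every array, while AT2G21490 and DOR lie under the band.

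The labelled cell type could be checked with 4 of 36 marker loci. SGN3 (annotated as GSO1), the receptor kinase that monitors the Casparian strip of the endodermis, had signals of 3421, 5068 and 5823, while SCR and the CASP genes, which define the layer, were not analysed here. Of the root hair markers, the expansin gene EXP7 had signals of 18.0, 71.5 and 192 and EXP18 34.1, 54.9 and 147, and both lay above the reference level in 3 of 3 arrays. CO2, a cortex marker, had 12.2, 28.7 and 10.6, above it in 1 of 3. The root hair markers were lowest in replicate 1 and highest in replicate 3, the order that SGN3 also had. No member had that order, but with SGN3 sharing it and only 3 arrays, an order cannot separate the cell types. In size the markers differed, with a range of 10.7-fold for EXP7, 4.29-fold for EXP18 and 1.70-fold for SGN3. Among plant probe sets of like level, their SDs stood at the 99.6th, 97.8th and 84.4th percentiles. The cause of this spread was not tested. The part of other cells in the members' signals was not tested.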

How the data were processed

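Per the labels' protocols, total RNA of sorted protoplasts went through 2 amplification cycles to biotinylated cRNA, which was hybridised to 1 array per replicate. The authors deposited 1 linear intensity for each of 22810 probe sets and array (64 of them controls), made with MAS5 per the submitters' processing notes. No version or scaling target is stated in the labels. No depth exists for arrays, and their number, 3, limits the precision. Replicates are labelled biological, but how seedlings were divided is not stated, so p-values cover only these arrays. They set a difference from the reference level against the spread between the arrays. That spread was moderated toward a variance pooled over all plant probe sets. No values were identical between arrays (Pearson's r 0.924 to 0.931, log2).

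Log2 intensities minus the reference level were tested against 0 over all 22746 plant probe sets with limma 3.58.1 in R 4.3.3 (lmFit, eBayes, two-sided, Benjamini-Hochberg, threshold 0.05). The script was tested on simulated data with the same spread for all probe sets, so that trial does not cover the larger spread of dim ones. The platform annotation gave 1 gene symbol for 13513 plant probe sets, several for 503 and none for 8730. RefSeq's gene table (TAIR10.1) turned 13436 into loci and gave neighbours. Members and lists were chosen with earlier results of these data known. Named were the members, the highest means, all other dehydrins, and in each other list the 3 highest, the 2 lowest and those with an SD over 1, which here is every locus read. No gene was sought for a pattern like a member's, since 3 arrays of 1 group are too few. The planned description of promoters and proteins was not made.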

Additional observations from a re-analysis of the deposited data

How the results depend on the processing

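Plant probe sets above the reference level numbered 15715, and between 11654 (highest Bacillus probe set as reference) and 16837 (their 75th percentile) over 10 alternatives, and from 14731 to 15412 with 1 replicate left out. The count of pathway genes above it, 4, ran from 4 to 5 over 11 alternatives and from 4 to 5 with 1 replicate left out. The fifth was AT4G38410, which passed limma's test with log2(signal + 16), without replicate 2, at the 75th percentile and with a trend in eBayes, with adjusted p from 0.000129 to 0.316 over its alternatives. LEA18 passed, below the reference, only with the highest Bacillus probe set (adjusted p = 0.0346). The 8 members under 7 alternatives each gave 56 levels, of which 38 moved by less than the SD between arrays and 18 by more. Those 18 arose where the reference or the pseudocount shifts every value by construction. ERD10 ran from 8.96 to 10.78 (log2), RD29A from 4.30 to 6.08, COR15A from -0.48 to 1.00, COR15B from -0.42 to 1.28 and RD29B from -1.60 to -0.12. COR15A and COR15B thus have no settled side of the reference level. Scaling to the median and the count of members highest in replicate 2 were added after seeing the data. Low signals limit COR15A, COR15B and RD29B: the neighbours of RD29B in level had a median SD of 1.21. No paired analysis was possible because all 3 arrays form 1 group.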
